A study of Homo sapiens with 14 samples.

Results

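The RNA of 10 output and feedback genes of the RAF-MEK-ERK pathway was followed in A375 cells, a human melanoma line driven by a mutant BRAF kinase. The genes were picked by name from 28307 gene symbols in the files, with earlier results of these data known. They were DUSP4, DUSP5, DUSP6, SPRY2, SPRY4, SPRED1, SPRED2, ETV4, ETV5 and PHLDA1, and all 10 were expressed well enough to be tested in every comparison. PolyA-selected RNA-seq had been done on 14 libraries, of cells either edited in the gene ZC3H18 (Z18), which encodes a nuclear RNA surveillance factor, or left unedited as controls. Gene levels were deposited as FPKM, fragments scaled to the length of the transcript and to the depth of the library, so that levels can be compared between genes.

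The bulk Z18 CRISPR cells (n = 3) were transiently transfected with Cas9 and a guide RNA against Z18, selected with antibiotic and kept as mixed populations. The bulk control cells (n = 3) received the Cas9 vector with no guide RNA and the same selection, so that both bulk groups had been exposed to Cas9 and the antibiotic. The other libraries came from single cells grown out by limiting dilution after transfection and selection. These were Z18 trunc/+ clones (n = 3), heterozygous for a truncating mutation, Z18 -/+ clones (n = 3), heterozygous for loss of function, and Z18 WT clones (n = 2). Each clone gave 1 library, and the trunc/+ clones did not all carry the same mutation, since only some had been made by template repair. P-values measure the spread between these libraries, which may be technical in part, and in RNA from whole populations fewer cells of a type and less RNA per cell cannot be told apart.

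Growth signals reach the nucleus through RAS, RAF, MEK and ERK, and mutant BRAF keeps the last kinases of this chain active. ERK activity switches on its own brakes. The DUSP genes encode phosphatases that take the activating phosphates off ERK, the SPRY and SPRED genes encode inhibitors that act upstream at the level of receptors, RAS and RAF, and ETV4 and ETV5 are ETS transcription factors that ERK signaling induces. PHLDA1 encodes a pleckstrin homology-like protein whose RNA is also commonly read as ERK output. In melanoma with mutant BRAF these RNAs are known to be high and to fall within hours of RAF or MEK inhibition. Several of them serve in scores of pathway activity.

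The libraries held 15615675 to 33018360 aligned fragments, and 10951 to 12159 genes reached an FPKM of 1. Bulk control 2 had the fewest such genes and also the lowest read coverage over the least covered of the 10 genes, 8.24 reads per base, against 117.6 in the library where that figure was highest. Z18 itself stood at 10.4, 11.9 and 12.8 FPKM in bulk Z18 CRISPR and at 38.1, 13.9 and 48.7 FPKM in bulk control, so that bulk control 2 lay just above the edited cells. In clones it stood at 14.3, 13.98 and 8.70 FPKM in trunc/+, 16.2, 17.1 and 16.1 FPKM in -/+, and 23.5 and 22.0 FPKM in WT, with all 6 edited clones below both WT clones. None of these differences in Z18 RNA passed the test over all genes (lowest adjusted p = 0.176, limma, in bulk). Of 10 markers of melanocytes and melanoma, 6 reached an FPKM of 1 in some library of each group. SOX10 and VIM were among them, whereas the pigment gene PMEL stayed at or below 0.559 FPKM and MLANA and TYR were at 0 in every library.

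Promoter windows of 4 of the genes are printed here because their RNA varied alike in pairs over the 8 clones, SPRY2 with SPRY4 (r = 0.94) and DUSP6 with PHLDA1 (r = 0.85). They are RefSeq windows (GRCh38.p14) of 250 bases before to 50 bases after an annotated start. Each is read on the minus strand, the strand of the gene. In the files (hg38), SPRY2 spanned 80335977 to 80341126 of chromosome 13, DUSP6 spanned 89347237 to 89352501 of chromosome 12 and PHLDA1 spanned 76025447 to 76031776 of chromosome 12, each ending at the start that its window surrounds. SPRY4 spanned 142310430 to 142325021 of chromosome 5, so that its window, around another of its starts, lay within the gene. Capitals mark matches on either strand to GGGCGG, the GC box, to CGGAAG, a short ETS word, or to CCAAT, the CCAAT box. They also mark the E-box word CACGTG and its common variant CATGTG, which the melanocyte factor MITF binds.
SPRY2, chr13:80341077-80341376: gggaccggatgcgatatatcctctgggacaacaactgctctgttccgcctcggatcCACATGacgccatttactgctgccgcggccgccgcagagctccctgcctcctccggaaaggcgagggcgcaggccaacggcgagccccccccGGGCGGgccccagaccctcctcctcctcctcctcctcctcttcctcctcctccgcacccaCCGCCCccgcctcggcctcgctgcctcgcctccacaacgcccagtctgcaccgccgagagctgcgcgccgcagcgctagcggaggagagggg
SPRY4, chr5:142324198-142324497: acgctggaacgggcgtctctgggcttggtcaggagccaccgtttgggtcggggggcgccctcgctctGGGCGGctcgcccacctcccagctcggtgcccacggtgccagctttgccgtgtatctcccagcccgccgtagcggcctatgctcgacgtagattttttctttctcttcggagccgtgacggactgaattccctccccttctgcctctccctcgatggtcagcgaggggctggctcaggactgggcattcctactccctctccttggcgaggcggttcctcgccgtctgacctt
DUSP6, chr12:89352452-89352751: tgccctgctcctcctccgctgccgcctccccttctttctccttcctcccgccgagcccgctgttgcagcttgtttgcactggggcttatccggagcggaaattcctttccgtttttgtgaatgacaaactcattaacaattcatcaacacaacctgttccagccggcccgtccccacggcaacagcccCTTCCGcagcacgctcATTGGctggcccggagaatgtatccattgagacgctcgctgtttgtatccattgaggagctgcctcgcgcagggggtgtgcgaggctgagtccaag
PHLDA1, chr12:76031727-76032026: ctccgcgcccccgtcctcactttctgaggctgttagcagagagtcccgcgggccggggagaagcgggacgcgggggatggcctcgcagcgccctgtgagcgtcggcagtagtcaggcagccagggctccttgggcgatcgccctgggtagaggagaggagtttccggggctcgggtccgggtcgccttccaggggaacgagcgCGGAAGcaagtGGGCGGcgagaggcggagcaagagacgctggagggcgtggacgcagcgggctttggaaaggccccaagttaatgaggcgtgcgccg

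SPRY2 held the GC box 2 times and the E-box letters once, SPRY4 held 1 GC box, DUSP6 held 1 short ETS word and 1 CCAAT box, and PHLDA1 held 1 short ETS word and 1 GC box. The GC box was in 44.6% of 27305 RefSeq windows, the CCAAT box in 35.7%, the short ETS word in 19.9% and an E-box of this kind in 17.9%. Of the octamers bound by the ERK-regulated repressor CIC, only TGAATGAA and TGAATGGA were searched for, so that other forms may be present. No member window held either word (2.66% of all windows). The same was true of the full ETS word CCGGAAGT, which contains the short one (4.44%), the AP-1 words TGAGTCA and TGACTCA (4.92%), the CRE word TGACGTCA (1.98%) and the TATA word TATAAA (12.0%). The words ACAAAG and ACAATG, which SOX factors bind, were in the window of SPRED2 and in 24.6% of all windows. A window was found for 6 of the 10 genes, those printed and SPRED1 and SPRED2. DUSP5, ETV4 and ETV5 had no entry, and DUSP4 was left out. These matches describe letters, and binding was not measured.

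In the bulk populations all 10 genes had a log2FC above 0 in Z18 CRISPR against control, as did 64.7% of all genes tested, and the inhibitor genes SPRY2, SPRY4 and SPRED2 had the largest differences, each of about 1 on the log2 scale. None of the 10 passed the adjusted threshold of 0.05 (limma on log2(FPKM + 1), Benjamini-Hochberg over 12114 genes), where 0.347% of all genes did. At an unadjusted p below 0.05, 5 of the 10 were higher and 0 were lower, beside 14% of all genes that were higher and 6.93% that were lower at that level. In 5 of the 10 the 3 CRISPR libraries lay above the 3 control libraries, beside 21.8% of all genes, and in 0 they lay below, beside 10.4% of all genes. The median difference of the 10 genes was 0.58, and that of all genes tested was 0.18. Fold changes on this scale understate the change of low genes.

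**Figure D1:**
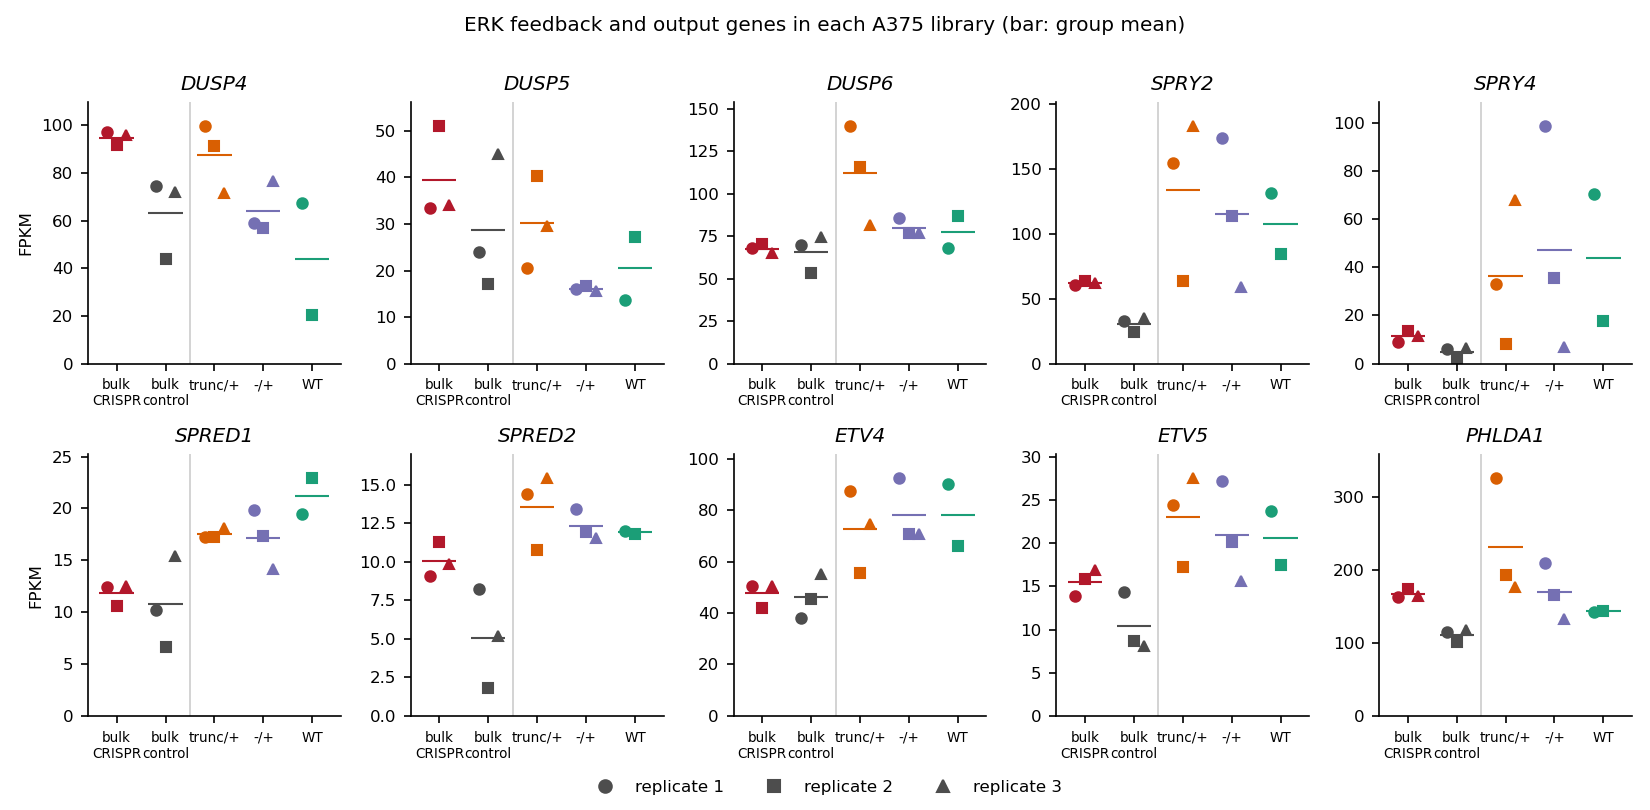
FPKM (linear axes from 0) of the 10 genes in each library, by group, with symbols for replicate number and a bar for the group mean. SPRY4 spread over 7.11 to 98.6 FPKM within the 8 clones, and the 3 bulk CRISPR libraries lay above the 3 bulk controls for DUSP4, SPRY2, SPRY4, SPRED2 and PHLDA1.

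Of the phosphatases, DUSP4, which acts on ERK in the nucleus, stood at 97.1, 91.5 and 95.8 FPKM in bulk Z18 CRISPR, against 74.4, 44.0 and 71.8 FPKM in bulk control. The groups did not overlap, and the log2FC was 0.61 (SE 0.25, adjusted p = 0.218, limma), or 0.37 without bulk control 2. DUSP5, an ERK-specific nuclear phosphatase, stood at 33.5, 51.1 and 34.1 FPKM in bulk CRISPR, against 23.9, 17.0 and 45.1 FPKM in bulk control. Its groups overlapped, since bulk control 3 was above 2 of the CRISPR libraries (log2FC 0.54, SE 0.36, adjusted p = 0.392, limma). Without bulk control 2 it was 0.23, and without bulk control 3 it was 0.91. DUSP6, the cytoplasmic ERK phosphatase most often used as a measure of ERK activity, stood at 68.0, 70.4 and 65.1 FPKM in bulk CRISPR, against 69.8, 53.4 and 74.8 FPKM in bulk control. Here the CRISPR libraries fell inside the range of the controls, with a log2FC of 0.05 and a 95% interval of -0.42 to 0.53 (limma).

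The Sprouty genes differed more. SPRY2 stood at 60.4, 63.6 and 62.1 FPKM in bulk Z18 CRISPR, against 32.9, 24.3 and 35.3 FPKM in bulk control. Every CRISPR library was well above every control, and the ratio of the means was 2.01 (log2FC 1.00, SE 0.21, adjusted p = 0.0941, limma). SPRY4 stood at 8.95, 13.4 and 11.5 FPKM in bulk CRISPR, against 6.27, 2.51 and 6.35 FPKM in bulk control. It too did not overlap (log2FC 1.09, SE 0.34, adjusted p = 0.166, limma). The fold of SPRY4 rested partly on the low bulk control 2, without which its log2FC was 0.735, while that of SPRY2 was 0.85. SPRY2 passed the threshold in 1 alternative only, the fit without bulk control 1 (log2FC 1.06, adjusted p = 0.0383, limma), in which 1327 genes were called over all, against 42 genes with all 6 bulk libraries.

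The SPRED proteins bring neurofibromin, which switches RAS off, to the membrane. SPRED2 stood at 9.05, 11.3 and 9.85 FPKM in bulk Z18 CRISPR, against 8.24, 1.82 and 5.20 FPKM in bulk control, with no overlap. Its controls varied over a wide range, and without bulk control 2 the log2FC was 0.54 in place of 1.02 (SE 0.41, adjusted p = 0.220 with all libraries, limma). SPRED1 stood at 12.5, 10.6 and 12.6 FPKM in bulk CRISPR, against 10.2, 6.64 and 15.4 FPKM in bulk control. The groups of SPRED1 overlapped (log2FC 0.20, SE 0.30), and without bulk control 2 the difference was -0.08.

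Of the transcription factors, ETV4 stood at 50.5, 42.1 and 50.5 FPKM in bulk Z18 CRISPR, against 38.1, 45.3 and 55.0 FPKM in bulk control, and the ranges were nested. Its log2FC was 0.06 with a 95% interval of -0.44 to 0.55 (limma). ETV5, its close relative, stood at 13.9, 15.8 and 16.9 FPKM in bulk CRISPR, against 14.3, 8.68 and 8.12 FPKM in bulk control. Only bulk control 1 reached the CRISPR range (log2FC 0.58, SE 0.26, adjusted p = 0.254, limma). PHLDA1, the most abundant of the 10 by mean in both bulk groups, stood at 162.8, 174.3 and 165.1 FPKM in bulk CRISPR, against 115.7, 101.3 and 117.4 FPKM in bulk control. PHLDA1 did not overlap between groups and had a small spread (log2FC 0.58, SE 0.19, adjusted p = 0.176, limma).

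Bulk control 2 was the lowest of the 6 bulk libraries for 8 of the 10 genes, all but ETV4 and ETV5. Without it the median log2FC of the 10 genes was 0.43, against 0.08 for all genes, and DUSP6 and SPRED1 fell below 0. Its part in the bulk differences was otherwise not tested. Markers of other cell types differed between the same groups. The epithelial keratins KRT8 and KRT7 fell in bulk Z18 CRISPR, with KRT8 at 46.7 ± 8.42 FPKM in CRISPR and 176.2 ± 37.1 FPKM in control (SD, n = 3 each, adjusted p = 0.0292, limma). The summed level of the 6 epithelial markers was 413.6 to 538.6 FPKM in CRISPR and 714.6 to 1109 FPKM in control, and 3 of the 6 reached an FPKM of 1. Of 5 haematopoietic markers, LAPTM5 was at 2.00 ± 0.21 FPKM in CRISPR, against 0.15 ± 0.22 FPKM in control (SD, n = 3 each, adjusted p = 0.0409, limma). LAPTM5 reached the FPKM of 1 needed for the test only in the CRISPR libraries. The filter thus favored this direction, and the p-value is no independent support for it. Nearly all of the summed haematopoietic level, 158.6 to 173.7 FPKM in CRISPR and 37.5 to 82.0 FPKM in control, was CD74, while the defining leukocyte gene PTPRC was at 0 in all 6 bulk libraries. The fibroblast list summed to 7.01 to 8.74 FPKM in CRISPR and 2.01 to 2.82 FPKM in control. The endothelial list summed to at most 0.608 FPKM in either. The part of these markers in the differences of the 10 genes was not tested.

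**Figure D2:**
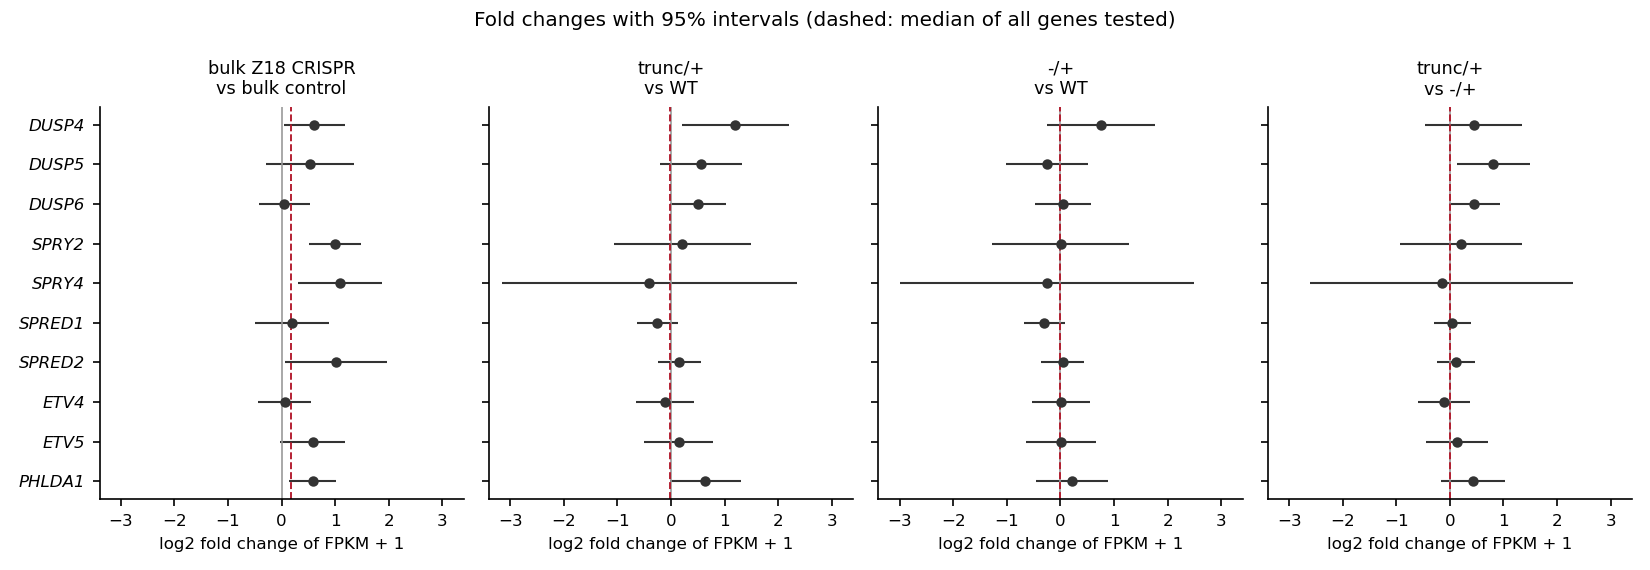
Log2 fold change (x axis, FPKM + 1) of each of the 10 genes with its 95% interval in 4 comparisons, with a dashed line at the median of all genes tested. In bulk the 10 points lie to the right of 0, from 0.05 for DUSP6 to 1.09 for SPRY4, and in the clone comparisons the SPRY4 interval is the widest.

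Other genes of the pathway were read in the same bulk fit, from lists of related genes. Of 14 further ERK output genes, 13 were measured and 0 passed the adjusted test. At an unadjusted p below 0.05, 4 of them were higher, beside 14% of all genes, and 1 was lower, beside 6.93%. The 4 with the largest differences were ETV1, another ETS factor (log2FC 1.50, adjusted p = 0.183), EPHA4, an ephrin receptor (1.34, adjusted p = 0.0885), the transcription factor gene FOSL1 (1.12, adjusted p = 0.362) and SPRY1 (-1.03, adjusted p = 0.0822, all limma). SPRY1 thus differed in the opposite direction to SPRY2 and SPRY4, and its level was low, at 0.56 ± 0.13 FPKM in CRISPR and 2.21 ± 0.35 FPKM in control (SD, n = 3 each). SPRY1 reached the FPKM of 1 needed for the test only in the control libraries. The filter thus favored this direction, and the p-value is no independent support for it. FOSL1 overlapped between the groups, at 193.8, 164.9 and 205.6 FPKM in bulk CRISPR and 196.4, 22.6 and 139.9 FPKM in bulk control. The low value was that of bulk control 2. CCND1, the cyclin gene downstream of ERK, stood at 216.6, 219.8 and 218.6 FPKM in bulk CRISPR, against 145.8, 81.9 and 138.0 FPKM in bulk control (adjusted p = 0.156, limma).

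Of 30 genes for the ERK cascade and its inputs, 27 were measured and 0 passed (limma). At an unadjusted p below 0.05, 4 of them were higher, beside 14% of all genes, and 0 were lower, beside 6.93%. The largest differences were those of PEA15, which binds ERK in the cytoplasm (log2FC 1.05), NF1, a RAS-GTPase activator (0.91), the exchange factor gene SOS1 (0.87) and RASA2, another RAS-GTPase activator (0.81), with adjusted p from 0.137 to 0.288. The groups of NF1 and SOS1 overlapped, while those of PEA15 and RASA2 did not. BRAF itself was at 3.49 ± 0.56 FPKM in CRISPR and 1.87 ± 1.31 FPKM in control (SD, n = 3 each, adjusted p = 0.245, limma). Of 8 other MAPK phosphatase genes, 6 were measured and 0 passed (1 higher and 0 lower at an unadjusted p below 0.05, beside the same shares of all genes, limma). DUSP10, whose product acts on p38 and JNK rather than ERK, had the largest difference among them, at 8.84, 13.3 and 7.92 FPKM in CRISPR and 4.57, 3.01 and 1.25 FPKM in control (log2FC 1.55, adjusted p = 0.121, limma). Of 12 ERK-regulated transcription factors and repressors, all 12 were measured and had a log2FC above 0, beside 64.7% of all genes. None of them passed, and 4 were higher at an unadjusted p below 0.05, beside 14% of all genes (limma). ELK1 (1.32) and ELK3 (0.99), ternary complex factors, had the largest differences. The medians of the 4 lists were 0.56, 0.37, 0.33 and 0.64, in the order given, beside 0.18 for all genes.

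In trunc/+ clones against WT clones 0 of the 10 genes passed the adjusted test, where 0.00775% of all genes did (limma, 12904 genes). At an unadjusted p below 0.05, 1 of the 10 was higher, beside 3.29% of all genes, and 0 were lower, beside 4.3%. DUSP4 and PHLDA1 were higher in every trunc/+ clone than in either WT clone, beside 10.6% of all genes, and SPRED1 was lower in every one, beside 15.4%. The median log2FC of the 10 was 0.18, against -0.02 for all genes. DUSP4 stood at 99.7, 91.1 and 71.7 FPKM in trunc/+ and at 67.3 and 20.3 FPKM in WT (log2FC 1.20, SE 0.43, adjusted p = 0.646, limma). Without WT 2 the log2FC was 0.36, and without WT 1 it was 2.04. PHLDA1 stood at 326.5, 193.7 and 177.7 FPKM in trunc/+ and at 143.4 and 143.6 FPKM in WT, with the highest value of all 14 libraries in trunc/+ 1 (log2FC 0.64, SE 0.29, adjusted p = 0.658, limma). Without that clone its log2FC was 0.37. SPRED1 stood at 17.2, 17.2 and 18.1 FPKM in trunc/+ and at 19.5 and 22.9 FPKM in WT (log2FC -0.26, SE 0.17, limma), and the difference was -0.14 without WT 2.

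DUSP6 stood at 140.0, 115.7 and 81.9 FPKM in trunc/+ clones, against 68.1 and 86.8 FPKM in WT clones. The 2 highest DUSP6 levels of the study were thus in trunc/+ clones, while trunc/+ 3 lay below WT 2 (log2FC 0.51, SE 0.23, adjusted p = 0.658, limma). Its log2FC was 0.34 without trunc/+ 1 and also without WT 1. The other genes overlapped. SPRY2 stood at 154.8, 64.1 and 183.1 FPKM in trunc/+ and at 131.1 and 84.7 FPKM in WT, a difference of 0.21 with a 95% interval of -1.06 to 1.49. For SPRY4 the interval ran from -3.15 to 2.35 around -0.40, so that differences of several fold either way could not be told from 0 at this spread.

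In -/+ clones against WT clones none of the 10 passed, beside 0.00775% of all genes, and none passed at an unadjusted p below 0.05, beside 0.713% of all genes that were higher and 1.11% that were lower at that level (limma). In 0 of the 10 did the groups separate, beside 6.16% of all genes that separated upward and 8.44% downward. The median log2FC was 0.01, against -0.02 for all genes. DUSP6 stood at 85.8, 77.1 and 76.7 FPKM in -/+ and at 68.1 and 86.8 FPKM in WT, and all 3 -/+ values lay between the WT clones (log2FC 0.05, 95% interval -0.47 to 0.58, limma). DUSP4 had the largest difference, 0.76 (SE 0.43), with 59.1, 57.0 and 76.5 FPKM in -/+ and the same low WT 2 in the comparison. It was -0.08 without WT 2 and 1.60 without WT 1. The trunc/+ and -/+ clones were compared with the same WT clones.

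Between trunc/+ and -/+ clones 0% of all genes passed the adjusted test and neither did any of the 10 (limma). At an unadjusted p below 0.05, 1 was higher, beside 3.12% of all genes, and 0 were lower, beside 3.16%. DUSP5 was higher in every trunc/+ clone, beside 4.79% of all genes, and none of the 10 was lower in every one, beside 6.45%. It stood at 20.6, 40.3 and 29.6 FPKM in trunc/+ and at 16.0, 16.7 and 15.7 FPKM in -/+, so that the -/+ clones were tightly grouped and the trunc/+ clones were not (log2FC 0.81, SE 0.29, adjusted p = 0.788, limma). DUSP6 differed by 0.46 (SE 0.20, adjusted p = 0.7996, limma) and overlapped only through trunc/+ 3. Without trunc/+ 1 that difference was 0.28. Of the further ERK output genes, FOS, the immediate early gene, stood at 30.8, 43.7 and 125.5 FPKM in trunc/+ and at 34.3, 4.07 and 4.53 FPKM in -/+, and overlapped because of -/+ 1. DUSP1, an immediate early phosphatase gene, stood at 9.99, 12.2 and 19.7 FPKM in trunc/+ and at 7.39, 7.49 and 4.66 FPKM in -/+. These values of FOS and DUSP1 were singled out after they were seen, and neither passed the adjusted test (adjusted p = 0.785 for both, limma).

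The effect of bulk editing was tested against the effect of each clone genotype in a fit of all 14 libraries. The difference of effects passed the adjusted test in 0.0446% of genes for trunc/+ and in 0.0298% for -/+ (limma, 13439 genes). It passed in none of the 10 genes in either, and their lowest unadjusted p was 0.0679 (limma, SPRED2 relative to -/+). The difference of effects was largest for SPRY4, 1.49 (SE 1.28) relative to trunc/+ and 1.33 (SE 1.28) relative to -/+. For SPRED2 it was 0.86 (SE 0.49) relative to trunc/+ and 0.98 (SE 0.49) relative to -/+ (adjusted p = 0.583, limma). The bulk and clone effects were thus not shown to differ for any of the 10.

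The clones differed from each other widely in SPRY4 and less in most of the other genes. Over the 8 clones SPRY4 ranged from 7.11 to 98.6 FPKM, 13.9-fold, DUSP4 4.91-fold, SPRY2 3.09-fold, DUSP5 2.94-fold, PHLDA1 2.46-fold and DUSP6 2.06-fold. ETV5, ETV4, SPRED1 and SPRED2 ranged over 1.76-fold or less. The SD of SPRY4 within genotypes was 1.60 on the log2 scale, which placed it 99th from the top among 12904 genes, where the median gene had 0.25. That of SPRY2 was 0.73, reached by 7.28% of genes, and that of DUSP4 was 0.57, reached by 12.6%. The brakes SPRED1 and SPRED2 lay below the median gene, at 0.17 each.

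The extremes of SPRY4 fell in the same genotype. Clone -/+ 1 had 98.6 FPKM, the highest of the study, -/+ 2 had 35.6 FPKM, and -/+ 3 had 7.11 FPKM, the lowest of the clones. The trunc/+ clones had 32.9, 8.13 and 67.9 FPKM and the WT clones 70.2 and 17.9 FPKM. All 3 genotypes therefore held clones of high and of low SPRY4. SPRY2 put the clones in nearly the same order. It was lowest in -/+ 3 (59.2 FPKM), trunc/+ 2 (64.1 FPKM) and WT 2 (84.7 FPKM), the same 3 clones that were lowest for SPRY4. The highest SPRY2 levels were in trunc/+ 3 (183.1 FPKM) and -/+ 1 (173.6 FPKM).

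ETV5 followed SPRY2 clone for clone. It stood at 24.4, 17.2 and 27.5 FPKM in trunc/+, 27.2, 20.2 and 15.6 FPKM in -/+, and 23.7 and 17.5 FPKM in WT, and the ranks of the 8 clones were identical to those of SPRY2 (Pearson r = 0.98, Spearman rho = 1.0, and r = 0.99 without the 2 clones farthest from the median of SPRY2). Among 10731 genes at an FPKM of 1 or more in all clones, ETV5 ranked 3 in likeness to SPRY2, and SPRY4 ranked 58. SPRY2 and SPRY4 had r = 0.94 (rho = 0.83, and 0.80 without the 2 farthest clones). SPRED2 had r = 0.86 with SPRY2 (rho = 0.95), though it moved only between 10.8 and 15.4 FPKM, and ETV4 had r = 0.76 (rho = 0.76). Taken as deviations from the genotype means, the values were 0.98 for both ETV5 and SPRY4 with SPRY2, and 0.88 for SPRED2.

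DUSP6 did not go with them. Its r over the 8 clones was 0.00 with SPRY2, -0.27 with SPRY4 and 0.01 with ETV5. It varied most like PHLDA1 among the 10 (r = 0.85, rho = 0.79), since trunc/+ 1 was highest for both, at 140.0 and 326.5 FPKM, and the value was 0.48 without the 2 clones farthest from the median of DUSP6. CCND1, at 316.7 FPKM in trunc/+ 1 and 206.4 FPKM in trunc/+ 2 and at 103.2 to 146.9 FPKM in the other 6 clones, had r = 0.90 with DUSP6 and 0.05 without those 2. The likeness of DUSP6 to CCND1 thus rested on 2 trunc/+ clones, and that to PHLDA1 rested on them in part. DUSP4 and SPRED1 ran opposite to each other (r = -0.73), with WT 2 lowest for DUSP4 and highest for SPRED1. Between SPRY2, SPRY4, SPRED2, ETV4 and ETV5 the median of the 10 r values was 0.81. Between those 5 genes and DUSP5, DUSP6 and PHLDA1 the median of 15 values was 0.00, over a range of -0.73 to 0.53. The values of DUSP5 with those 5 genes were all below 0, and those of PHLDA1 were all above 0. Among DUSP5, DUSP6 and PHLDA1 themselves the 3 values ran from 0.17 to 0.85. These sets were picked after the values were seen, the 8 clones share their cell line, and the correlations are given as descriptions.

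**Figure D3:**
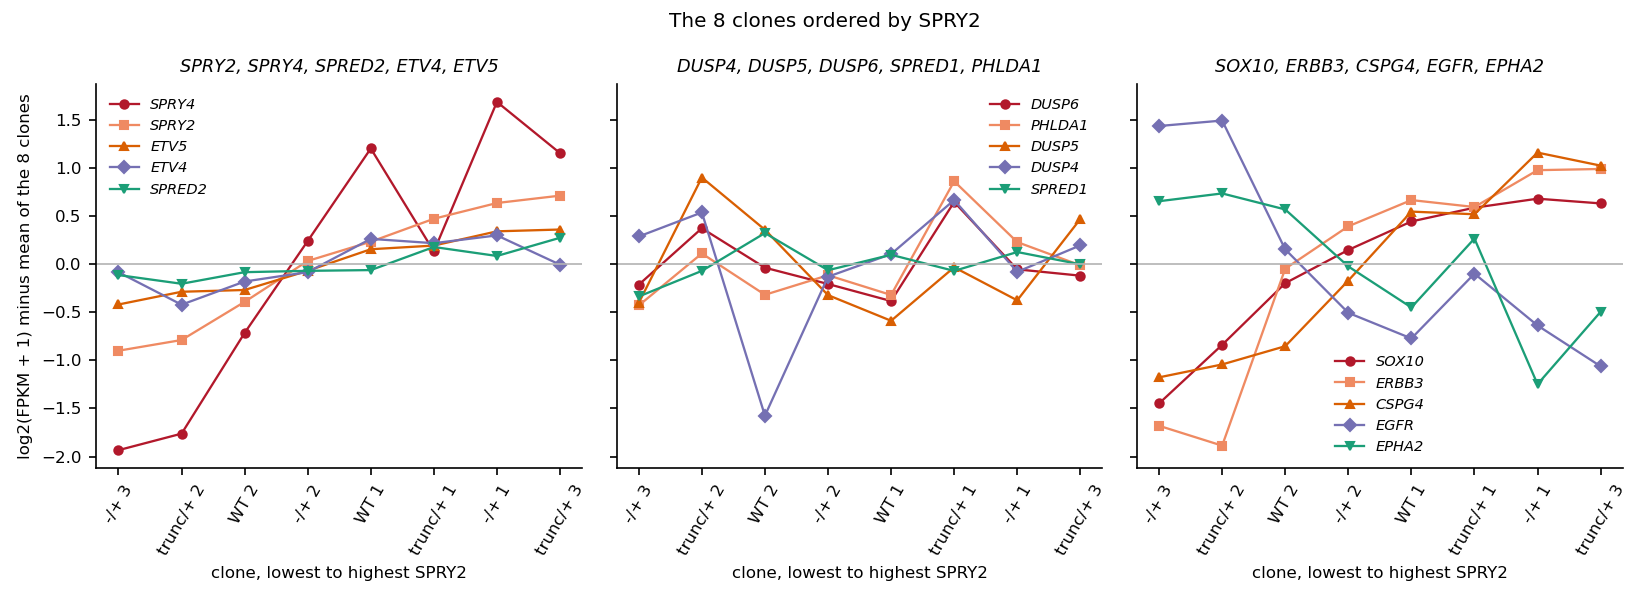
Log2(FPKM + 1) of each gene minus its mean over the 8 clones (y axis), with the clones in order of SPRY2 (x axis). SPRY2 and ETV5 climb from -/+ 3 to trunc/+ 3 in the left panel, and SPRY4 rises with dips at trunc/+ 1 and trunc/+ 3. The DUSP genes, SPRED1 and PHLDA1 do not climb in the middle panel. In the right panel SOX10, ERBB3 and CSPG4 climb while EGFR and EPHA2 decline.

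**Figure D4:**
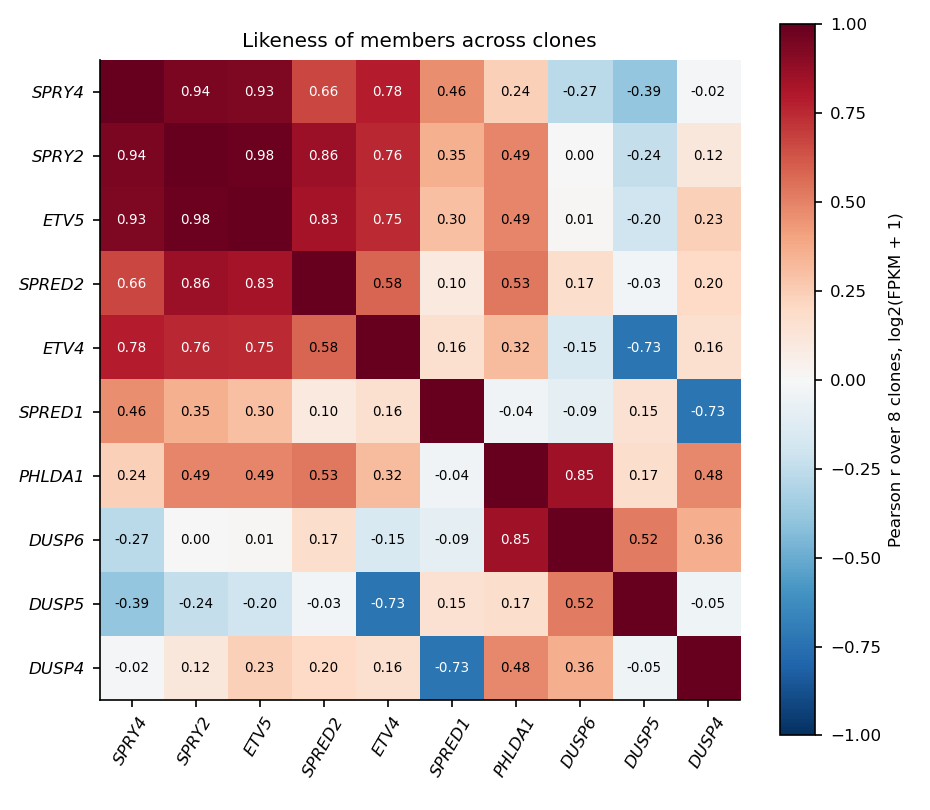
Pearson r over the 8 clones for every pair of the 10 genes, on log2(FPKM + 1), from blue (-1) to red (1). SPRY4, SPRY2, ETV5, SPRED2 and ETV4 form a block with r of 0.58 to 0.98. DUSP6 with PHLDA1 is at 0.85, and PHLDA1 with those 5 genes is at 0.24 to 0.53.

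In the bulk libraries most of the genes deviated together within groups, and ETV4 and ETV5 less so. The r of deviations from the group means over the 6 libraries was 0.95 for SPRY2 with SPRY4 and 0.98 for SPRY2 with DUSP6, the pair with no relation in clones, whereas it was 0.26 for SPRY2 with ETV5. Bulk control 2, low for 8 of the 10 genes, was in all of these values, so they were not independent of that library.

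Z18 RNA itself had r = -0.30 with SPRY2, -0.07 with SPRY4 and -0.32 with DUSP6 over the 8 clones. Of the 66 genes set against SPRY2 in the same way, Z18 and the listed pathway and marker genes, 3 that mark the neural crest side of melanoma, SOX10, CSPG4 and ERBB3, were high where it was high. SOX10, the transcription factor that maintains the melanocyte lineage, stood at 198.8, 73.4 and 205.0 FPKM in trunc/+, 212.2, 146.3 and 47.8 FPKM in -/+, and 179.9 and 115.0 FPKM in WT. Its lowest clones were again -/+ 3, trunc/+ 2 and WT 2 (r = 0.96 with SPRY2, rho = 0.98, and 0.98 without the 2 farthest clones). The proteoglycan gene CSPG4 had r = 0.98 with SPRY2, and ERBB3, the neuregulin receptor gene, had 0.94. ERBB3 stood at 11.7 FPKM in -/+ 3 and 10.0 FPKM in trunc/+ 2, and at 38.5 to 80.0 FPKM in the other 6 clones. MITF, the melanocyte factor in the same marker list as SOX10 and CSPG4, did not follow (r = -0.20 with SPRY2 and -0.10 with SPRY4). It was highest in -/+ 1, at 19.7 FPKM, but stood next at 14.6 FPKM in -/+ 3 and 11.1 FPKM in trunc/+ 2, where SPRY2 was lowest. Of the ERK output genes EGR3, an immediate early gene, had r = 0.94 with SPRY2, EGR1 0.71, SPRED3 0.65, MAFF 0.64 and FOS 0.52. Lower values were those of IER3 (0.36), ETV1 (0.34), LIF (0.05), EPHA4 (0.04), CCND1 (-0.04), MYC (-0.07), FOSL1 (-0.58) and EPHA2 (-0.82). Of the MAPK phosphatases DUSP14 had 0.95, DUSP10 0.76, DUSP1 0.43 and DUSP7 -0.56.

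EGFR, the epidermal growth factor receptor gene, ran the other way. It stood at 3.36, 12.1 and 1.24 FPKM in trunc/+, 2.00, 2.29 and 11.6 FPKM in -/+, and 1.73 and 4.19 FPKM in WT. The clones with the highest EGFR were thus those with the lowest SPRY4 and SPRY2. Its r was -0.95 with SPRY4 (rho = -0.88, and -0.85 without the 2 farthest clones) and -0.91 with SPRY2 (rho = -0.86, and -0.69 without them). The receptor genes EPHA2 (r = -0.93 with SPRY4), MET (-0.90) and AXL (-0.79) were also high where SPRY4 was low. Other receptor genes of the lists were not. ERBB3 (0.94) and ERBB2 (0.79) went with SPRY4, while PDGFRB (0.35), FGFR1 (-0.18) and EPHA4 (-0.23) had weaker values. These genes were singled out after their values were seen. In the 6 bulk libraries EGFR did not oppose SPRY4, since both were lowest in bulk control 2, at 1.69 and 2.51 FPKM, and both had their highest bulk value in bulk CRISPR 2, at 11.6 and 13.4 FPKM.

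**Figure D5:**
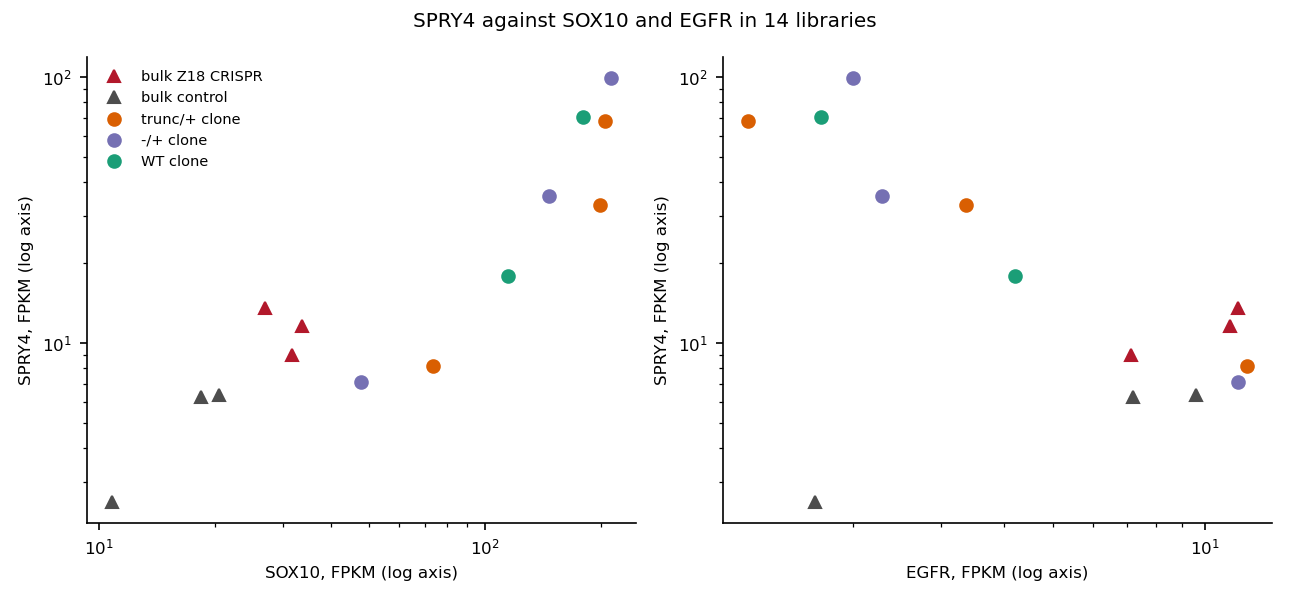
SPRY4 (y axis) against SOX10 (left x axis) and EGFR (right x axis) in FPKM on log axes, with clones as circles and bulk libraries as triangles. Clones with SOX10 above 100 and EGFR below 5 FPKM have SPRY4 of 17.9 FPKM or more, while -/+ 3 and trunc/+ 2 lie with the bulk libraries at low SPRY4.

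Some markers of other cell types moved with SPRY4 as well. CD74 had r = 0.96 with SPRY4 and stood at 203.1 FPKM in trunc/+ 2, 216.5 FPKM in -/+ 3 and 389.1 FPKM in WT 2, and between 923.0 and 1436 FPKM in the other 5 clones. The haematopoietic list as a whole was nearly all CD74. It summed to 203.4 to 1184 FPKM in trunc/+, 217.0 to 1437 FPKM in -/+, and 389.4 to 1133 FPKM in WT. LAPTM5 of that list stood at 0.27, 0.26 and 0.15 FPKM in trunc/+, 1.06, 1.52 and 0.48 FPKM in -/+, and 1.14 and 0.28 FPKM in WT. It was thus lowest in trunc/+ 3, where SPRY4 was at 67.9 FPKM. PTPRC was at or below 0.0305 FPKM in all 8 clones. The epithelial list ran the other way, with KRT18 at r = -0.88 with SPRY4, and summed to 211.3 to 359.6 FPKM in trunc/+, 175.5 to 698.4 FPKM in -/+, and 190.1 to 562.6 FPKM in WT. The part of these markers in the differences between clones was not tested.

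In 6 of the 10 genes at least 7 of the 8 clones lay above every bulk library, beside 13.3% of the 13439 genes in the fit of all libraries. ETV4 was above every bulk library in 8 of 8 clones, beside 7.63% of all genes, and DUSP6, SPRY2, SPRED1, SPRED2 and ETV5 were in 7 of 8. SPRY4 was in 6 of 8, PHLDA1 in 4, DUSP4 in 1 and DUSP5 in none. SOX10 was above every bulk library, which reached at most 33.6 FPKM, in all 8 clones. The clones had been through limiting dilution and expansion and the bulk populations had not, what each of these steps did cannot be told apart, and the difference was not tested.

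Over all 14 libraries, with the bulk and clone means removed, the genes most like DUSP6 among 9651 at an FPKM of 1 or more throughout were ZBTB22 (r = 0.87), SNX25 (0.87), TNIP1 (0.87), NDUFAF3 (0.86) and RSRP1 (0.86). PHLDA1 was 71st (0.73), the closest of the 10, followed by DUSP5 (0.56) and DUSP4 (0.42), whereas SPRY2 (0.11) and SPRY4 (-0.12) were far down the list.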

How the data were processed

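RNA from 14 A375 libraries in 5 groups was polyA-selected and sequenced by the authors from stranded libraries. Reads were trimmed with cutadapt 4.6, per the submitters' processing notes, and run through SQuIRE on hg38 by the authors. The sources used here do not give its version. The authors' StringTie step over RefSeq genes gave the deposited gene files, which hold FPKM, TPM and read coverage (a signal per base). FPKM was used for the tests, the deposited TPM as an alternative, and the deposited coverage and the deposited count of aligned fragments per library for depth. Transposable element files were otherwise not used. All columns belonged to a sample (0 without one).

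FPKM was summed per gene symbol and tested as log2(FPKM + 1) with limma 3.58.1 (trend, R 4.3.3, two-sided) over all genes, with Benjamini-Hochberg adjustment and a threshold of 0.05. FPKM had to reach 1 in at least 3 libraries of the bulk fit (6 libraries) or 2 of the clone fit (8 libraries, 1 shared estimate of the spread because there were 2 WT clones). The study used a count model, which normalized values do not allow. The script was tested on simulated data. Groups came from the genotype labels. The 10 genes, the related lists and the markers were chosen with earlier results of these data known, and all 10 were named. Of each related list, genes past the threshold or else up to 4 with the largest bulk difference were named, and others are stated to have been singled out later. Alternatives were a pseudocount of 0.1, no filter, a filter at 5, TPM, quantile scaling, a replicate block, fits of other sets of libraries and leaving out each library. Promoter windows came from RefSeq, and 1 gene's window is not reported here.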

Additional observations from a re-analysis of the deposited data

How the results depend on the processing

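In the bulk comparison 42 genes were called, 23 higher and 19 lower. The count was 20 with a pseudocount of 0.1, 16 without a filter, 27 with a filter at 5, 22 with TPM and 301 in 1 fit of all 14 libraries. Quantile scaling gave 73, with 25 higher and 48 lower, and moved the median of all genes to 0.03, against 0.18, while that of the 10 members was 0.57. A replicate block gave 220, but same-numbered bulk libraries had r of -0.16, -0.21 and 0.17 between their deviations, so the numbers do not pair them, and it called 0 members. Leaving out 1 library gave 4 to 1327 genes and 0 to 1 members, the 1 being SPRY2 without bulk control 1. In both trunc/+ and -/+ clones against WT, 1 gene was called, 3 without a filter, and 0 with a pseudocount of 0.1, a filter at 5, TPM, a replicate block, only the 2 groups or 1 fit of all 14 libraries, and 0 to 1 leaving out 1 library. The difference of bulk and trunc/+ effects was called in 6 genes, 1 with a pseudocount of 0.1 and 3 with TPM, and that of bulk and -/+ effects in 4 genes, 2 with a pseudocount of 0.1.

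No member was called under any other alternative run. Signs of small member differences turned when 1 library was left out. In bulk, DUSP6 ranged from -0.090 to 0.15, SPRED1 from -0.080 to 0.47 and ETV4 from -0.069 to 0.19. In trunc/+ against WT, SPRY2 ranged from -0.10 to 0.67, SPRY4 from -1.36 to 0.56, ETV4 from -0.33 to 0.11 and ETV5 from -0.066 to 0.36. In -/+ against WT, DUSP4 ranged from -0.079 to 1.60, DUSP5 from -0.72 to 0.22, DUSP6 from -0.12 to 0.23, SPRY2 from -0.35 to 0.41, SPRY4 from -1.20 to 0.72, SPRED2 from -0.019 to 0.080, ETV4 from -0.22 to 0.22 and ETV5 from -0.20 to 0.22, and SPRY2 was -0.011 with quantile scaling. In trunc/+ against -/+, SPRY2 ranged from -0.20 to 0.67, SPRY4 from -1.12 to 0.69, SPRED1 from -0.079 to 0.15, ETV4 from -0.26 to 0.062 and ETV5 from -0.047 to 0.33. The cause of these changes was not tested beyond the library left out. FPKM keeps no count of reads per gene, so counting error could not be given, and 2 WT clones limit every comparison with WT.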
